A study of Saccharomyces cerevisiae
Saccharomyces paradoxus with 24 samples.

Results

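The promoters described here drive the mating genes of haploid α cells, in which both are active. They are MAT-p, the shared promoter of MATALPHA1 and MATALPHA2, and SST2-p, the region upstream of SST2. They were chosen by gene, as the windows III 200151 to 200451 and XII 1041492 to 1041792, and are 2 of the 1118 Rap1 windows of the series. Both windows reached 150 bp to either side of a summit of Rap1 enrichment and were 301 bp long.

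The cells were Saccharomyces cerevisiae of 2 isolates, JRy15237 (replicate 1) and JRy15238 (replicate 2), which differed in nothing the labels state. For the anchor-away system both carried Rap1(134)-FRB_2xV5, RPL13A-2xFKBP12::TRP1, TOR1(S1972I) and fpr1::NAT. At the silent mating loci and BAR1 they carried hmrdelta::HygMX, bar1delta::k.l.URA3 and hmlalphadelta::UniqueHMLwithSNPs, which replaces native HML. The marker alleles were ura3, trp1-1, lys2, leu2 (changes 3 and 112), his3-11,15 and can1-100. The SIR genes were intact and MAT held the α genes. Rapamycin at 7.5 µM tethers FRB-tagged Rap1 to the FKBP12-tagged ribosomal protein Rpl13A, which carries it out of the nucleus, and cells were collected at 5, 10, 15, 20, 30, 45 and 60 min. The 0 min cells had DMSO only, for 60 min by the labels. Rap1 was immunoprecipitated through V5 in 16 libraries, 1 of each isolate at each of 8 times, and each isolate had an input library at 0 min. All groups thus shared the tagged Rap1, the lack of the secreted protease Bar1, which degrades α-factor, and the lack of HMR. Every sample also held cells of S. paradoxus, JRy15212, with V5-tagged Rap1 that were not exposed to rapamycin. Rap1 enrichment is given as reads in the window per 1000000 S. paradoxus reads of the library and is called the signal. The isolates were the only replicates, so each SD below is between 2 isolates.

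The mating type of a haploid yeast cell is set by the genes at MAT. In an α cell, the activator α1, from MATALPHA1, turns on α-specific genes, and the repressor α2, from MATALPHA2, turns off a-specific genes. The genes are divergent and are driven from the region between them, where Rap1 binds. The same genes lie at HML, where Sir proteins keep them silent. Sst2 acts later in mating, as a regulator of G protein signaling. It returns the G protein α subunit Gpa1 to its inactive state and lets cells recover from pheromone. Rap1 is a general regulatory factor that activates many highly expressed genes, binds the silencers and covers telomeric repeats.

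The Rap1 site between the α genes is printed because MAT-p and HML-p differ around it and because the study's mutant lies in it. The stretch runs from MATALPHA2 toward MATALPHA1 over 100 bases, and its coordinates within the window were not determined here. Capitals mark the core of the Rap1 site, the SNPs of the unique HML and the changed bases of the mutant template, respectively.
α promoter: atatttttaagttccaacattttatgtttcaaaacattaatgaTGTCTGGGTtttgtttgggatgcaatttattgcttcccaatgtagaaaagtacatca
unique HML: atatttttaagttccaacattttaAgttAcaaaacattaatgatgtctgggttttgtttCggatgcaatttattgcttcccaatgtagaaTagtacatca
mutant template: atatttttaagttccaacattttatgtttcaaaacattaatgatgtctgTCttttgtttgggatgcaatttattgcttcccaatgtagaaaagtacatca

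The core TGTCTGGGT filled positions 44 to 52, counted from 1 at the 5′ end of the printed stretch, and reads ACCCAGACA on the other strand. The unique HML carried 4 SNPs in the stretch, T25A, T29A, G60C and A91T, and 0 of them lay in the core. MAT-p and HML-p thus had the same core, with the nearest SNPs 15 bases before it and 8 bases after it. The longest run without a SNP was 30 bases. The mutant template changed 2 core bases, G50T and G51C, and no library of the time course carried it.

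The MAT-p window covered all of the space between its genes. The summit lay at III 200301, 123 bp from the start codon of MATALPHA2 (YCR039C, minus strand, 199546 to 200178) and 141 bp from that of MATALPHA1 (YCR040W, plus strand, 200442 to 200969). The genes are 263 bp apart, so the window also held 28 coding bases of MATALPHA2 and 10 of MATALPHA1. The SST2-p window was entirely intergenic. Its summit lay at XII 1041642, 276 bp from the start codon of SST2 (YLR452C, minus strand, 1039270 to 1041366), and the window spanned 126 to 426 bp from that codon. Upstream of it, across 6 bases, the window met the 3′ end of RIF2 (YLR453C, minus strand, 1041799 to 1042986). RIF2 encodes a partner of Rap1 at telomeres, and its own start lay at the far end of that gene. No other window had a summit within 5000 bp of either summit: the nearest lay 21811 bp from MAT-p, at RPS14A, and 10479 bp from SST2-p.

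Depth ranged from 4397759 to 9219038 S. paradoxus reads and from 1201827 to 3401521 window reads over the ChIP libraries. Replicate 2 stood above replicate 1 over all windows by a mean of 0.54 on the log2 scale at 0 min and 0.53 at 60 min, and this shift made up 94.0% and 88.2% of the squared log2 difference between the isolates at those times. The promoters followed it only in part: at 10 min the shift was 0.39 while SST2-p differed by 0.01, and at 45 min it was -0.07 while MAT-p differed by 0.20. MAT-p was higher in replicate 2 at all 8 times and SST2-p at 7 of them, the exception being 45 min.

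Before rapamycin, Rap1 was enriched at both promoters and more so at MAT-p. The 0 min signal of MAT-p was 457 in replicate 1 and 592 in replicate 2, at ranks 189 and 206 of the 1118 windows. That of SST2-p was 187 and 242, at ranks 343 and 363. Both promoters were thus in the upper part of the series, with no overlap between them. The ratio of MAT-p to SST2-p was 2.44 in each isolate.

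The inputs allowed a check on how much of that gap was already in the chromatin before immunoprecipitation. Over input, MAT-p was 2.58 in replicate 1 (95% exact binomial interval 2.18 to 3.07) and 1.51 in replicate 2 (1.28 to 1.79). SST2-p was 1.23 (1.02 to 1.49) and 0.607 (0.513 to 0.722). The intervals cover counting error only and rest on 122 to 155 input reads a window. Since the spike-in differs between ChIP and input, a value below 1 does not mean a lack of Rap1, and the median window stood at 0.532 and 0.359. Against that median, MAT-p was 4.85 and 4.21 times as high and SST2-p 2.31 and 1.69 times. The input signals of the promoters were close to each other, with MAT-p over SST2-p at 1.16 and 0.981, so the input-normalized ratio was 2.10 and 2.49. With 2 libraries a side, no exact test of this difference can reach a p under 0.05.

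At MAT-p, Rap1 enrichment was 98.7% of its start at 5 min and fell to 20.9% by 60 min. After the 457 and 592 of 0 min, the signal was 454 and 581 at 5 min, 297 and 425 at 10 min, and 222 and 263 at 15 min. It went on to 206 and 216 at 20 min, 144 and 159 at 30 min, 107 and 124 at 45 min, and 91.2 and 129 at 60 min. The mean order followed time at every step. Neighboring times had overlapping ranges only for 0 with 5 min and for 45 with 60 min. The window held 635 to 3348 reads in each library.

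SST2-p still had 88.6% of its starting Rap1 enrichment at 10 min and 47.4% at 15 min. From 187 and 242 at 0 min, the signal was 214 and 255 at 5 min, 187 and 188 at 10 min, and 91.2 and 112 at 15 min. It was 72.7 and 82.0 at 20 min, 44.8 and 50.8 at 30 min, 51.0 and 42.9 at 45 min, and 34.1 and 50.3 at 60 min. The highest mean was at 5 min, and ranges overlapped for 5 with 0 min, 0 with 10 min, 30 with 45 min and 45 with 60 min. The 10 min library of replicate 1 stood out. It held 1681 reads in the SST2-p window, the most of any library, and its signal equaled 99.8% of that at 0 min, against 77.4% in replicate 2. The lowest count was 197 reads, at 30 min in replicate 1.

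**Figure D1:**
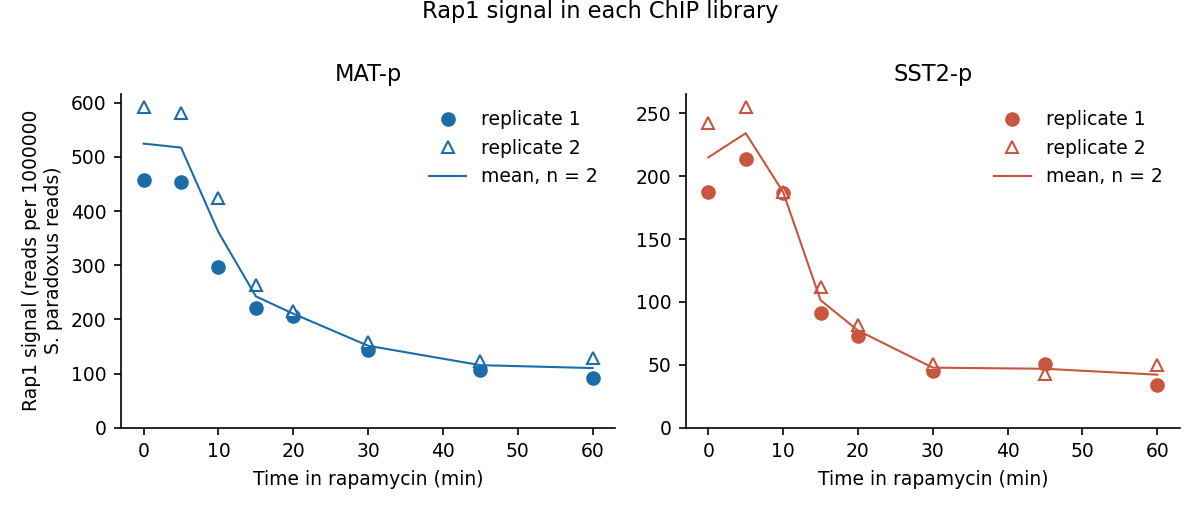
Rap1 signal (reads per 1000000 S. paradoxus reads) at MAT-p and SST2-p in each ChIP library against minutes in rapamycin, with replicate 1 as filled circles, replicate 2 as open triangles and a line through the means of 2 libraries. MAT-p fell from 457 and 592 to 91.2 and 129, and SST2-p went from 187 and 242 at 0 min to 187 and 188 at 10 min and to 91.2 and 112 at 15 min.

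The test across all windows placed the first change from 0 min at 15 min for both promoters. Here and below, log2 changes are on the scale of log2(signal + 1), with adjusted p-values from limma with Benjamini-Hochberg adjustment over 1118 windows, and their standard error was 0.27 at every window. At 5 min neither promoter passed: the log2 difference was -0.02 at MAT-p and 0.13 at SST2-p (adjusted p = 1 in limma for each). At that time limma called 0% of windows lower, and 39 windows had an unadjusted p under 0.05. At 10 min, when 73.1% of windows were called lower and 0.0894% higher, MAT-p differed by -0.55 (adjusted p = 0.0597 in limma) and SST2-p by -0.19 (adjusted p = 0.541 in limma). MAT-p passed at 10 min when the isolate was a term in the fit (adjusted p = 0.00978 in limma), and also without replicate 1 of 0 min or without replicate 2 of 10 min. SST2-p passed in none of these.

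At 15 min, MAT-p had fallen by 1.10 on the log2 scale (adjusted p = 6.7e-05 in limma) and SST2-p by 1.07 (adjusted p = 0.000108 in limma), with 94.3% of windows called lower. Both calls held at every later time, when 94.3% to 96% of windows were called, so they set neither promoter apart. At 60 min, the log2 change was -2.25 at MAT-p and -2.33 at SST2-p, against a median of -2.40 over all windows. The early calls depended on the spike-in, which the paper calls important because Rap1 was depleted over time. Scaling to the window total takes out any loss shared by most windows, so it cannot show whether that loss occurred. Scaled to its own window total instead, each library put the median change at 15 min higher by 1.01, and MAT-p then differed by -0.07 and SST2-p by -0.04 from 0 min (adjusted p = 0.646 and 0.81 in limma). At 20 min neither passed under that scaling either, and from 30 min on both did. The smallest p-values rest on a spread pooled over windows and do not measure agreement between isolates.

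Steps from one time to the next were tested in the same fit, and no test compared the steps of the promoters with each other. For SST2-p, the step from 10 to 15 min passed, with a fall of 0.89 on the log2 scale (adjusted p = 0.00294 in limma), in an interval when 80.9% of windows were called. Without replicate 1 of 15 min the step was -0.74 (adjusted p = 0.0684 in limma). For MAT-p the loss was spread over neighboring intervals. It differed by -0.53 from 5 to 10 min (adjusted p = 0.0691 in limma), when 73.3% of windows were called lower, and by -0.55 from 10 to 15 min (adjusted p = 0.0515 in limma). With the isolate as a term, both steps passed (adjusted p = 0.0125 and 0.00829 in limma). After 15 min, no step of either promoter passed, and limma called few windows: 0% from 15 to 20 min, 2.24% from 20 to 30 min and 0% in each later step, with 108, 90, 10 and 29 windows lower at an unadjusted p under 0.05. The SST2-p step from 20 to 30 min, -0.68, passed with the isolate as a term (adjusted p = 0.0264 in limma), and the steps of both promoters in that interval passed when scaled to the window total.

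As shares of the 0 min signal, both promoters stood above the typical window early and near it late. MAT-p kept 98.7% ± 0.917 at 5 min, 68.4% ± 4.74 at 10 min and 46.5% ± 2.92 at 15 min (SD, n = 2), and 20.9% ± 1.35 at 60 min. SST2-p kept 110% ± 6.33, 88.6% ± 15.8 and 47.4% ± 1.88 at the same early times, and 19.5% ± 1.79 at 60 min. The median window kept 92.6%, 49.2% and 25.5%, and 18.1% at 60 min. At 10 min, 93 of the 1118 windows kept a larger share than SST2-p and 292 a larger share than MAT-p. By 60 min, 515 and 464 windows did so, close to the middle of the series.

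Windows upstream of genes are a nearer comparison, because the series also holds subtelomeric windows and windows in the rDNA region. Of the 1118 windows, 226 had a summit within 300 bp before a start codon and no tRNA gene in the window. Among these, the median share at 10 min was 68.2%, which placed MAT-p at percentile 50 and SST2-p at percentile 86.7. MAT-p was thus in the middle of the promoters at 10 min. At 20 min it was at percentile 66.8 with 40.7% ± 6.08 left, and SST2-p at percentile 60.2 with 36.3% ± 3.51 (SD, n = 2). The time to 50% of the 0 min value, by straight lines between samples, was 14.3 ± 0.414 min at MAT-p and 14.6 ± 0.356 min at SST2-p (SD, n = 2). The promoters overlapped in this measure, and the median upstream window took 12.3 min among the 197 that reached 50% in both isolates.

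**Figure D2:**
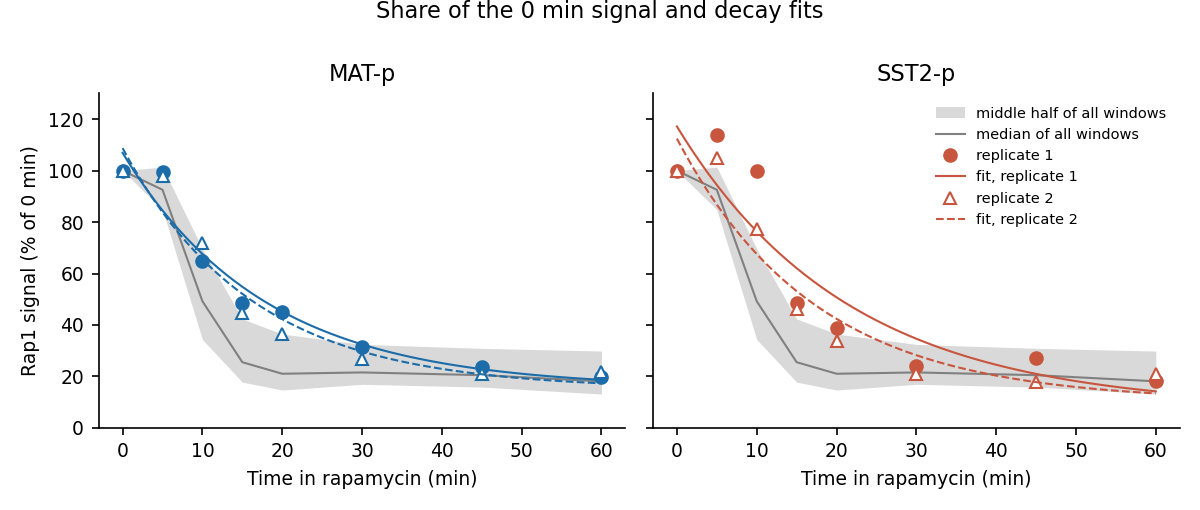
Rap1 signal as a percentage of the same isolate's 0 min signal against minutes in rapamycin for MAT-p and SST2-p, with symbols for each replicate, curves for the exponential fits, and in gray the median and the range from the lower to the upper quartile of all 1118 windows. Both promoters lie above the gray band at 15 min, with 46.5% and 47.4% left, and inside it at 60 min, with 20.9% and 19.5% left.

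The exponential decay gave both promoters an apparent residence time in the upper part of the range. The residence time is the inverse of the fitted rate, with a free plateau, as a geometric mean of the isolates. It was 17.0 min at MAT-p (17.8 and 16.2 min in the isolates, SE 3.37) and 19.3 min at SST2-p (21.5 and 17.3 min, SE 6.86). Here and below, SEs of residence times and intervals of their ratios come from the errors of the fits over time. They do not measure the spread between isolates. Of the 212 upstream windows with a passing fit in both isolates, 62 had a longer residence time than MAT-p and 40 a longer one than SST2-p, and the median was 13.3 min. The ratio of SST2-p to MAT-p was 1.14, with a 95% interval of 0.486 to 2.66 that includes 1.

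The fitted curves started at 117% and 112% of the 0 min signal for SST2-p and at 107% and 109% for MAT-p, above the measured start. The fitted plateaus were 7.43% and 10.2% at SST2-p, below each isolate's measured share at 60 min, and 15.5% and 15.0% at MAT-p. When the 0 min sample was left out, the residence times were 10.0 min at MAT-p and 10.1 min at SST2-p, and their ratio was 1.01.

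**Figure D3:**
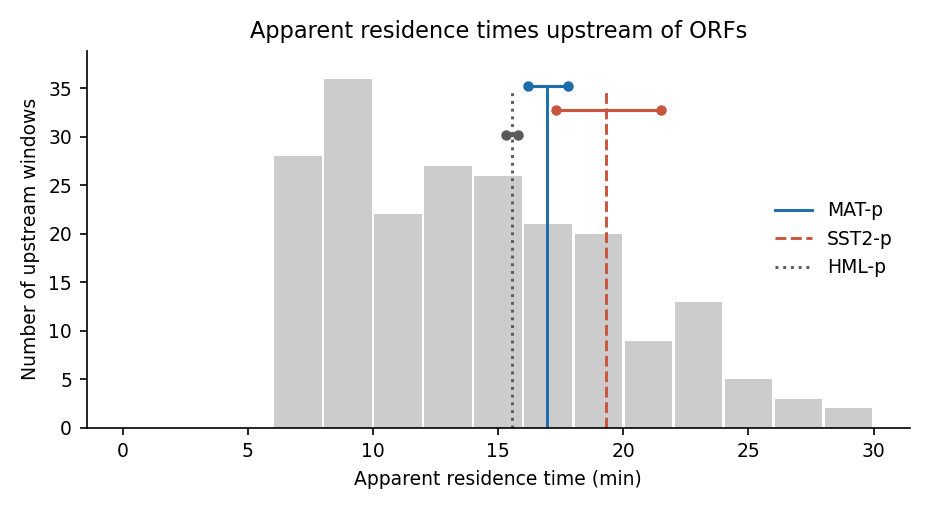
Number of upstream windows in bins of 2 min of apparent residence time, for the 212 windows with a passing fit in both isolates, with vertical lines at MAT-p (17.0 min), SST2-p (19.3 min) and HML-p (15.6 min) and a horizontal bar joining the isolates of each. The bars of MAT-p and SST2-p overlap, and both lie above the median of 13.3 min.

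A ratio of windows within a library does not depend on the spike-in, so each promoter was also followed relative to the other. MAT-p over SST2-p was 2.43 ± 0.00317 at 0 min, 1.92 ± 0.473 at 10 min, 3.13 ± 0.0659 at 30 min and 2.58 ± 0.0579 at 60 min (SD, n = 2). It ran from 1.59, in the 10 min library of replicate 1, to 3.17, with no significant trend over time (Pearson r = 0.36, permutation p = 0.178, adjusted 0.178, and Spearman rho = 0.49, permutation p = 0.0603, adjusted 0.0603, both 2-sided over 16 libraries). The 5 ratios described here and below entered the same Benjamini-Hochberg adjustment. Times were permuted freely over the 16 libraries, which come from only 2 isolates. The permutation p-values thus do not measure agreement between isolates. Without the 60 min libraries, the 2 farthest from the median time, r was 0.39 (permutation p = 0.175).

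Relative to the sum over all windows, both promoters fell, as most windows did. Scaled to that sum, limma called 862 of the 1118 windows lower at 60 min, with a median log2 change of -1.06. MAT-p changed by -0.88 and SST2-p by -0.97 under that scaling, so the fall sets neither promoter apart. The logarithm of MAT-p over the sum had r = -0.91 with time (permutation p = 2e-05, adjusted 5e-05, rho = -0.86, permutation p = 5e-05, adjusted 0.00012), and SST2-p over the sum had r = -0.84 (permutation p = 6e-05, adjusted 1e-04, rho = -0.85, permutation p = 1e-04, adjusted 0.00017). MAT-p was lower in both 60 min libraries, at 497 and 527 reads per 1000000 window reads, than in both 0 min libraries, at 1005 and 882. SST2-p went from 412 and 361 to 186 and 205. The relation held without the 60 min libraries, with r = -0.90 and -0.83 (permutation p = 5e-05 and 0.00022). The sum includes 21 windows in the rDNA region that made up 15.5% to 30.1% of it, and without them r was -0.95 at MAT-p and -0.87 at SST2-p (adjusted permutation p = 2e-05 and 8e-05).

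MAT-p and HML-p share the α promoter in active and silent chromatin, and their ratio in the same library changed over the time course. HML-p had the higher signal at 0 min and lost a larger share, keeping 10.2% ± 1.28 at 60 min against 20.9% ± 1.35 at MAT-p (SD, n = 2). The ratio of MAT-p to HML-p was 0.591 ± 0.0244 at 0 min, 0.758 ± 0.0292 at 15 min and 1.21 ± 0.0239 at 60 min. It rose with time (r = 0.91, permutation p = 1e-05, the smallest that these resamples can give, adjusted 5e-05, rho = 0.93, permutation p = 2e-05, adjusted 1e-04). Both isolates showed it, with r = 0.90 and 0.92, and without the 60 min libraries r was 0.82 (permutation p = 0.00034). At 60 min MAT-p was above HML-p in each isolate, at 91.2 against 73.9 and at 129 against 108. The fitted residence times were close, at 17.0 min (SE 3.37) for MAT-p and 15.6 min (SE 4.43) for HML-p. The paper calls the residence times at these promoters similar. Of the silencers at HML, HML-E kept 19.7% at 60 min, near MAT-p, and HML-I kept 11.1%, near HML-p. Whether the ratio relates to the chromatin state was not tested. The input reads at 0 min were 142 and 152 at MAT-p and 115 and 116 at HML-p. How many reads without a SNP could be placed at either locus was not tested.

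SST2-p also rose relative to HML-p, less evenly. Their ratio was 0.243 ± 0.00969 at 0 min, 0.363 ± 0.118 at 10 min, 0.273 ± 0.0493 at 30 min and 0.470 ± 0.0013 at 60 min (SD, n = 2). Over 16 libraries r was 0.73 (permutation p = 0.00189, adjusted 0.00236, rho = 0.70, permutation p = 0.0034, adjusted 0.00425). The relation rests on the 60 min libraries, without which r was 0.51 (permutation p = 0.0663), and it did not pass in replicate 1 alone (r = 0.61, adjusted permutation p = 0.137). The residence times of SST2-p and HML-p had a ratio of 1.24 with a 95% interval of 0.479 to 3.20.

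**Figure D4:**
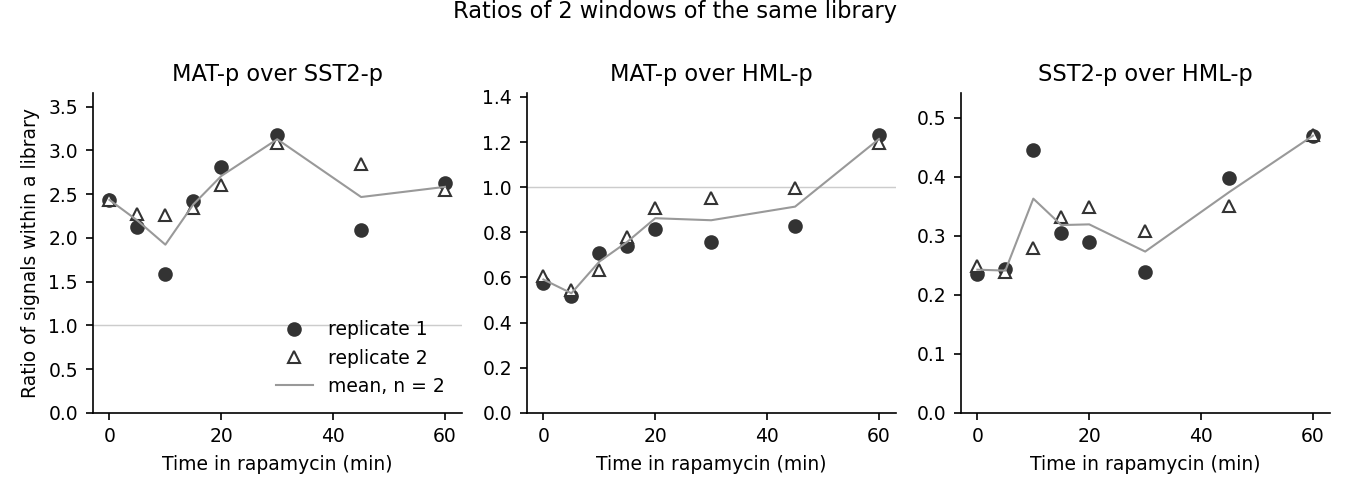
Ratios of the signals of MAT-p, SST2-p and HML-p within each library against minutes in rapamycin, with filled circles for replicate 1, open triangles for replicate 2, a line through the means and a thin gray line at a ratio of 1 where it is in range. MAT-p over HML-p goes from 0.591 at 0 min to 1.21 at 60 min, while MAT-p over SST2-p runs between 1.59 and 3.17 with no significant trend.

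The other windows upstream of mating genes had smaller mean shares of Rap1 left at 10 min than these promoters. Of a list of 63 genes of mating type, pheromone signaling and silencing, 9 had a window summit within 500 bp before the start codon, in 7 windows that include MAT-p, SST2-p and HML-p. The others lay upstream of STE3, the receptor for a-factor that α cells make, YCK2, a casein kinase of the plasma membrane, AKR1, the palmitoyltransferase that acts on Yck2, and STE6, the a-factor exporter of a cells. The AKR1 window is shared with PEX10, and the STE6 window lay next to CBT1 and over a tRNA gene, 475 bp from STE6. At 60 min all 7 windows were called lower than at 0 min, where 96% of all windows were. At 10 min 5 of 7 were called, close to the 73.1% of all windows, and MAT-p and SST2-p were not. With the isolate as a term MAT-p was called as well. Of the 548 windows with a mean signal of at least 50, which include both promoters, 255 were called lower at 10 min. Lacking a call at that time thus did not set the promoters apart.

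At 10 min, STE3 kept 48.8% ± 2.72, YCK2 44.8% ± 0.879, the STE6 window 30.0% ± 4.38 and the AKR1 window 59.8% ± 7.09 of the 0 min signal (SD, n = 2). Each is below the 68.4% of MAT-p and the 88.6% of SST2-p, with no overlap in any isolate, the nearest values being 64.8% at the AKR1 window in replicate 2 and 65.1% at MAT-p in replicate 1. HML-p kept 52.6% and 69.1%, which overlapped MAT-p. At 60 min, YCK2 kept 6.43% ± 0.169, against 20.9% at MAT-p and 19.5% at SST2-p. YCK2 began at a mean signal of 504, close to the 525 of MAT-p, and ended at 32.5 where MAT-p had 110. STE3 began at 292, above the 215 of SST2-p, and ended at 23.6 where SST2-p had 42.2. The apparent residence times were 11.1 min at STE3, 10.6 min at YCK2, 11.9 min at the AKR1/PEX10 window and 8.45 min at the CBT1/STE6 window. Differences between these windows and the members were not tested.

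**Figure D5:**
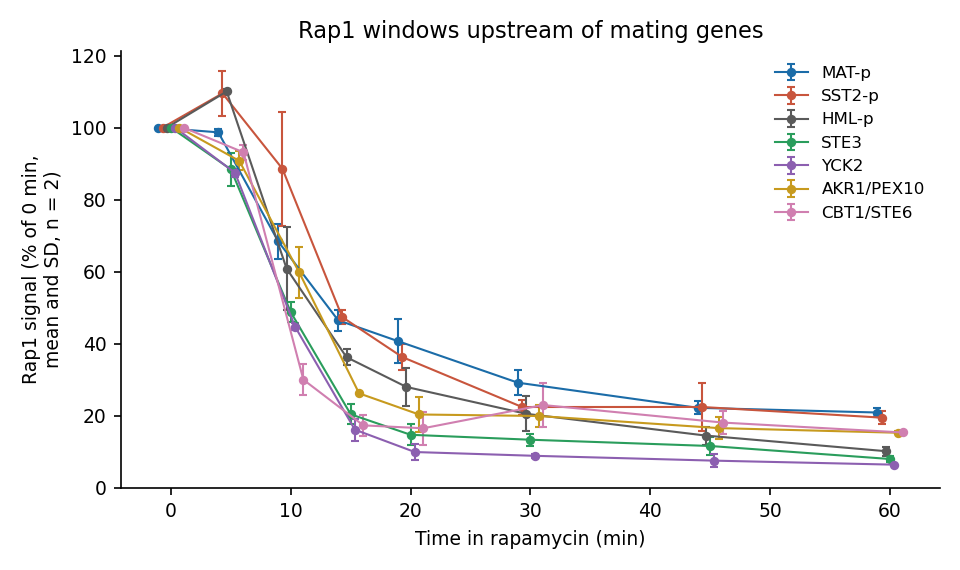
Rap1 signal as a percentage of 0 min (mean and SD of 2 isolates) against minutes in rapamycin for the 7 windows upstream of genes on the mating list, shifted slightly along the time axis for legibility. MAT-p and SST2-p are highest at 15 min, at 46.5% and 47.4%, and YCK2 is lowest at 60 min, at 6.43%.

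The 5 windows whose courses were most like each promoter were not on the mating list, which held only 7 of the 1118 windows. With so few listed windows, this is not a result about the promoters. Likeness was the root mean square difference of the log2 share left over the 14 libraries after 0 min, among 1076 windows with a 0 min mean signal of at least 50. For MAT-p, the nearest were NEW1/ALG5, RPL37B/PLM2, a window at XV 1004091 to 1004391, the silencer HML-E and DBF20/RPC40, at 0.15 to 0.16, where the median window was at 0.79. HML-E kept 19.7% at 60 min. For SST2-p, they were YNL011C/PYP1, HAT2, CBP2, SIZ1/ADE8 and ENO1, at 0.14 to 0.18, where the median was 0.83. The promoters were 0.25 apart, so SST2-p ranked 31st in likeness to MAT-p and MAT-p ranked 17th in likeness to SST2-p.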

How the data were processed

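Rap1 ChIP-seq was measured in 16 libraries of SIR cells, with 2 input libraries. The authors counted reads around MACS3 summits and deposited them as a signal per 1000000 S. paradoxus reads, after alignment to a joined S. paradoxus and modified sacCer3 genome. The submitters' processing notes name CASAVA 2.2, Bowtie2 and SAMtools. The authors also deposited S. paradoxus read counts per library, which were used to recover reads per window. Those are rounded products, so no count test was run. A total of 14 columns were not used and 1 table line was left out.

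Each time was set against 0 min and against the time before it with limma 3.58.1 in R 4.3.3, on the log2 of the signal plus 1 and without a replicate term. P-values were 2-sided, adjusted over the 1118 windows by Benjamini-Hochberg, and called under 0.05. An SSasymp decay was fitted to each isolate by nls. Ratios were tested by 100000 permutations. Tables and permutations were made in Python 3.11.15 with pandas 2.3.3, numpy 2.4.6 and scipy 1.17.1, and figures with matplotlib 3.10.9. The tests of change, decay and ratios were checked on simulated data with independent noise. The simulated decays had no lag before the fall, and the simulated libraries had no shift shared by their windows. The checks thus do not cover such features. Same-numbered libraries come from the same isolate by the labels and are therefore paired. Around the mean of each time, their deviations correlated across windows at -0.208 to 0.408 (median 0.168) over 28 pairs of times. This correlation leaves out the shift that all windows of a library share, so it does not measure the whole of the pairing.

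The sequences were read from the study's designed oligos, and the unmutated stretch is the mutant template with the mutated bases restored from the guide. Positions are 1-based in the modified sacCer3, and genes come from the R64 annotation. The motif search of windows and promoters that had been planned was not run here, for lack of a genome. The windows named are the members, HML-p, HML-E and HML-I, windows within 500 bp upstream of a listed mating gene, windows within 5000 bp of the members, and the 5 windows most like each. The members, lists and tests were chosen with earlier results of these data known.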

Additional observations from a re-analysis of the deposited data

How the results depend on the processing

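Of 365 alternative values for 47 results, 308 were classed as the same as the main value. For changes, trends and the residence time ratio, this means the same direction and side of the threshold. For residence times, ChIP over input, times to 50% and shares left, it means within 1 SD of the 2 isolates. Leaving out 1 of 2 isolates stays within that SD almost by construction, so those labels show no stability. Counts of windows were the same when within a set fold of the main count. The alternatives were a pseudocount of 0.1 or 5, a mean signal of at least 50, scaling to the total over all windows or over windows outside the rDNA region, the isolate as a replicate block, other decay fits and leaving out single libraries. The times to 50%, the shares left at 60 min and their alternatives were chosen after seeing the data. With a pseudocount of 5, MAT-p passed at 10 min (-0.54), from 5 to 10 min (-0.52) and from 10 to 15 min (-0.55). The replicate block made 4 member calls, all given above, and changed no other member call. At MAT-p these were -0.55 at 10 min against 0 min, -0.53 from 5 to 10 min and -0.55 from 10 to 15 min. At SST2-p it was the step from 20 to 30 min, -0.68. With the block, 1 window was lower at 5 min, 879 at 10 min and 1087 at 60 min, against 0, 817 and 1073 without it. Scaled to the total over all windows, SST2-p was at 0.27 at 10 min against 0 min, 0.15 from 5 to 10 min and 0.14 from 30 to 45 min, MAT-p was at 0.023 from 10 to 15 min, and none of these passed. Under that scaling MAT-p was at -0.069 at 15 min and -0.11 at 20 min, SST2-p at -0.042 and -0.27 with a step of -0.31 from 10 to 15 min, all no longer past the threshold, while the steps from 20 to 30 min passed (-0.55 at MAT-p, -0.76 at SST2-p). Then 10 windows were lower at 5 min, 54.6% of MAT-p and 50.9% of SST2-p was left at 60 min, the residence time of SST2-p was 76.0 min, and that of MAT-p could not be fitted in replicate 2, nor could their ratio, and neither promoter reached 50% in both isolates. Outside the rDNA region, SST2-p was at 0.24 at 10 min and -0.18 at 15 min, and MAT-p at -0.21 at 15 min. Among the 548 windows with a mean signal of at least 50, 255 were lower at 10 min, 487 at 15, 491 at 20, 494 at 30, 497 at 45 and 505 at 60 min, against 817, 1054, 1054, 1060, 1063 and 1073 of all windows. With the plateau at 0, the residence times were 24.8 min at MAT-p and 23.2 min at SST2-p (ratio 0.933). Leaving out 0 min gave 10.0 and 10.1 min. With residuals on the log scale they were 13.8 and 12.2 min (ratio 0.882). As shares of window reads, ChIP over input was 3.42 at MAT-p and 1.51 at SST2-p, against 2.05 and 0.919. Leaving out 1 library at a time, the change at 5 min ran from -0.21 to 0.17 at MAT-p and from -0.056 to 0.31 at SST2-p, and that of MAT-p at 10 min from -0.80 to -0.29. The steps ran at MAT-p from -0.79 to -0.27 (5 to 10 min), from -0.81 to -0.30 (10 to 15 min) and from -0.34 to 0.16 (45 to 60 min), and at SST2-p from -1.03 to -0.74 (10 to 15 min), from -0.15 to 0.094 (30 to 45 min) and from -0.44 to 0.10 (45 to 60 min). The r of SST2-p over HML-p was 0.61 and 0.90 in single isolates. The trends of MAT-p over HML-p and of both promoters over all windows passed under every alternative run, the total outside the rDNA region included. SST2-p had 197 to 354 reads a library from 30 min on, and 2 isolates do not allow an exact test at a single time. The cause of these differences between settings was not tested.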
